A study of Danio rerio with 32 samples.

Results

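The interaction of stag2b-/- with BIO is the BIO response in stag2b-/- zebrafish tailbuds minus the BIO response in wild-type tailbuds, each response being the log2 fold change of BIO-treated over untreated pools. It was measured in 16 of the 32 RNA-seq libraries of the series, 4 pools in each of 4 groups: stag2b-/- with BIO, stag2b-/- untreated, wild type with BIO and wild type untreated. At a 5% false discovery rate, 287 of the 21385 genes tested (1.34%) differed in response between the genotypes, 152 upward (0.711%) and 135 downward (0.631%) in stag2b-/- relative to wild type. The spread of each gene was estimated over all 32 libraries, including those of rad21 mutants. In a fit on the 16 libraries alone 90 genes passed. The comparison asks which transcripts answer a Wnt agonist differently when a cohesin subunit is mutated.

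The stag2b-/- embryos were homozygous for stag2b nz207, a line that is viable as homozygotes, and the wild-type embryos were of the WIK strain, kept as a separate line. BIO is 6-bromoindirubin-3'-oxime, given at 2.5 µM in E3 medium from 4 h post-fertilization until dissection at 16 somites, and the untreated embryos received no treatment according to the labels. Each library was poly(A)-selected RNA of a pool of 80 tailbuds. The sources used here do not say whether the pools of a group came from separate clutches, so p-values measure the spread between pools, which may be partly technical. Genetic background and the stag2b mutation cannot be told apart between the lines.

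As background, BIO inhibits Gsk3, the kinase that marks β-catenin for destruction, so that β-catenin builds up and Tcf/Lef target genes are induced. In the tailbud, Wnt signaling maintains the progenitors that feed the spinal cord and the paraxial mesoderm as the body axis extends. Stag2 is one of the alternative Stag subunits of cohesin, the ring complex that holds sister chromatids together and shapes chromatin loops around developmental genes.

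The 16 libraries held 32464614 to 84208700 counted fragments, and levels are given as CPM, counts scaled to a common library total, in the order of pools 1 to 4. By chi-square per gene between pools, where 1 would be counting noise, the untreated wild-type pools differed most from one another, at 72.1 to 179. It was 8.2 to 38.6 among stag2b-/- BIO pools, 32.3 to 96.2 among untreated stag2b-/- pools and 9.9 to 49.4 among wild-type BIO pools. This value was taken on raw counts and rises with depth at an equal spread. Totals were 52463137 to 84208700 in untreated wild-type pools and 32962132 to 72010017 in stag2b-/- BIO pools. Tailbud markers were present in all 16 libraries, with tbxta, the notochord and mesoderm progenitor factor, at 126 to 213 CPM and msgn1, the presomitic mesoderm factor, at 462 to 792 CPM.

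Transcripts of the mutated gene were still counted in every pool. stag2b had 132, 140, 144 and 135 CPM in the stag2b-/- BIO pools and 168, 170, 153 and 168 CPM in the untreated stag2b-/- pools, against 148, 190, 184 and 165 CPM in the wild-type BIO pools and 167, 194, 217 and 175 CPM in the untreated wild-type pools. The untreated groups overlapped, whereas each stag2b-/- BIO pool was below each wild-type BIO pool, and the BIO groups differed by a log2 fold change of -0.32 (edgeR adjusted p = 0.0129). Its own response to BIO did not pass the test for a difference between genotypes, at -0.13 ± 0.12 (edgeR adjusted p = 0.728). The counts cover the whole gene (chr14:28486213-28527422, GRCz11, plus strand) and do not show the mutated bases, so they do not check the genotype. None of the 22 genes on the list of cohesin and its regulators passed the interaction test, beside 1.34% of all genes. rad21l1, a rad21 paralog that is not on that list and was noticed after its values were seen, passed upward, at 1.71 (edgeR adjusted p = 0.0223), a call lost without 4 single libraries. Its BIO response was 0.68 (edgeR adjusted p = 0.133) in stag2b-/- and -1.03 (edgeR adjusted p = 0.00835) in wild type.

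Most genes that differed in response had a called response in wild type. BIO changed 1708 genes in stag2b-/- tailbuds (7.99%), with 3.26% of all genes rising and 4.72% falling, and 3709 in wild-type tailbuds (17.3%), with 7.58% rising and 9.76% falling. Of the 287 genes, 92 (32.1%) passed the test of the BIO response in stag2b-/- and 219 (76.3%) passed it in wild type. In 63 of the 287 the stag2b-/- response alone passed, with 30 rising and 33 falling, and in 190 the wild-type response alone passed, with 88 rising and 102 falling. Both responses passed in 29 genes, of which 23 moved in opposite directions and 6 in the same direction, and neither passed in 5. The estimated response was larger in wild type than in stag2b-/- in 204 of the 287. These counts describe genes chosen by the interaction itself, so they carry no test.

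The 2 genotypes stood apart under different conditions for different genes. For the difference between stag2b-/- and wild type with BIO, 2907 of all genes passed (13.6%), and for the difference between untreated groups 2480 passed (11.6%). Among the 287, the genotypes differed with BIO alone in 143, in untreated pools alone in 107, under both conditions in 31 and under neither in 6. A genotype difference that missed the threshold in 1 condition is not shown to be absent there.

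**Figure D1:**
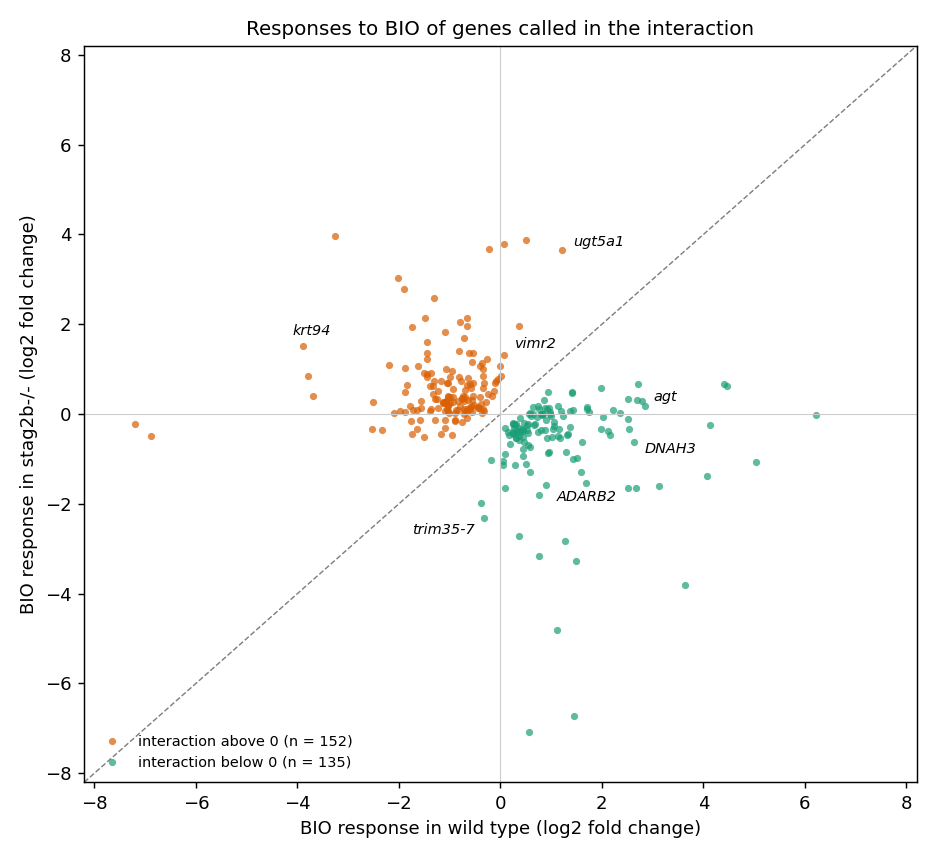
BIO response in stag2b-/- (vertical axis, log2 fold change) against BIO response in wild type (horizontal axis, log2 fold change) for the 287 genes that passed the interaction test, colored by the direction of the difference. The dashed line marks equal responses. The 152 genes above it and the 135 below it are separated by the choice of genes itself. Estimated responses have opposite signs in 226 of the 287, whether or not they passed, and the choice of genes favors this too. Both responses passed with opposite signs in 23.

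Genes that BIO lowered in wild type and not in stag2b-/- led the upward differences. The 12 highest interaction values were taken among genes with a symbol and an average log2 CPM of at least 1 over all 32 libraries. In these 12 the wild-type response fell in 11 and the stag2b-/- response rose in 2. Their differences ran between 1.45 and 5.41 on the log2 scale. The average includes the rad21 pools, so a named gene can be lower in the 16 libraries described here.

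The highest was krt94 (chr11:11468566-11471857, GRCz11, minus strand), a keratin, a family that builds the intermediate filaments of epithelia. krt94 had 0.609, 0.949, 0.93 and 0.963 CPM in the stag2b-/- BIO pools and 0.312, 0.206, 0.447 and 0.222 CPM in the untreated stag2b-/- pools, against 0.779, 0.633, 0.875 and 1.34 CPM in the wild-type BIO pools and 29.1, 11.4, 4.43 and 9.38 CPM in the untreated wild-type pools. The untreated wild-type pools were above all others without overlap, and the BIO pools of both genotypes overlapped. Its BIO response was 1.52 (edgeR adjusted p = 0.0787) in stag2b-/- and -3.89 (edgeR adjusted p = 2.97e-06) in wild type, a difference of 5.41 ± 0.7 (edgeR adjusted p = 1.54e-04). In pools of tissue, fewer cells of a type and less RNA per cell cannot be told apart.

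Markers of the skin moved with BIO in both lines. The summed level of the 47 epidermis and periderm genes tested was 44089 to 53384 CPM in stag2b-/- BIO pools and 64488 to 79456 CPM in untreated stag2b-/- pools, against 31072 to 41407 CPM in wild-type BIO pools and 43278 to 99325 CPM in untreated wild-type pools. BIO lowered 25 of the 47 in stag2b-/- and 36 of the 47 in wild type, beside 4.72% and 9.76% of all genes. In the interaction test 2 passed, krt94 upward and krt18b downward (4.26%), beside 1.34% of all genes. The abundant skin keratin krt4 had an interaction value of 0.28 (edgeR adjusted p = 0.652). The part of skin cell content in the krt94 result was not tested.

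LCP1, the actin-bundling protein of leukocytes, fell in wild type as well. LCP1 had 4.26, 4.82, 5.82 and 6.96 CPM in the stag2b-/- BIO pools and 2.13, 4.82, 4.64 and 4.18 CPM in the untreated stag2b-/- pools, against 1.95, 2.39, 2.2 and 2.86 CPM in the wild-type BIO pools and 13, 8.56, 6.06 and 7.25 CPM in the untreated wild-type pools. The untreated wild-type pools were above the untreated stag2b-/- pools and the wild-type BIO pools, and the stag2b-/- BIO pools were above the wild-type BIO pools. The difference in response was 2.36 ± 0.41 (edgeR adjusted p = 0.00193), and LCP1 fell by 1.88 in wild type on the log2 scale. LCP1 was the only 1 of the 11 macrophage and neutrophil genes tested to pass (9.09%), beside 1.34% of all genes. The summed level of those genes was 135 to 166 CPM in stag2b-/- BIO pools and 166 to 222 CPM in untreated stag2b-/- pools. It was 124 to 140 CPM in wild-type BIO pools and 144 to 235 CPM in untreated wild-type pools. Off the list, and noticed after its values were seen, the phagocyte oxidase gene cybb passed upward at 1.39 (edgeR adjusted p = 0.00332). cybb fell by 1.0 in wild type on the log2 scale, and its call held without each of the 16 libraries in turn. The part of leukocyte content in the LCP1 and cybb results was not tested.

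A second form of this pattern was a level set apart under BIO and shared without it. capn8, a calpain, one of the calcium-dependent proteases, was of this form. capn8 had 39.3, 36, 47.2 and 47.6 CPM in the stag2b-/- BIO pools and 24, 45.1, 31.8 and 41.3 CPM in the untreated stag2b-/- pools, against 12.3, 11.9, 10.6 and 14.3 CPM in the wild-type BIO pools and 33, 22.1, 28.2 and 25.2 CPM in the untreated wild-type pools. The wild-type BIO pools were below all 12 other pools without overlap. The BIO response was 0.26 (edgeR adjusted p = 0.342) in stag2b-/- and -1.14 (edgeR adjusted p = 1.16e-05) in wild type, a difference of 1.4 ± 0.23 (edgeR adjusted p = 9.02e-04).

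tdrd15, which encodes a tudor domain protein, a class that acts with piwi proteins in the germline, moved in opposite directions. tdrd15 had 3.4, 3.95, 4.01 and 2.91 CPM in the stag2b-/- BIO pools and 2.49, 2.34, 2.1 and 1.66 CPM in the untreated stag2b-/- pools, against 0.795, 0.985, 1.06 and 0.999 CPM in the wild-type BIO pools and 2.49, 2.43, 2.66 and 1.92 CPM in the untreated wild-type pools. The stag2b-/- BIO pools were the highest and the wild-type BIO pools the lowest, with no overlap between them, and the untreated groups overlapped. With BIO, tdrd15 rose by 0.73 in stag2b-/- and fell by 1.31 in wild type on the log2 scale, a difference of 2.05 ± 0.31 (edgeR adjusted p = 4.70e-04). Its relative tdrd5 differed in the same direction, by 1.01 (edgeR adjusted p = 0.0433), a call lost without 13 of the 16 libraries in turn, and averaged 6.96 ± 0.41 CPM in stag2b-/- BIO pools and 4.31 ± 0.504 CPM in untreated stag2b-/- pools, against 3.11 ± 0.404 CPM in wild-type BIO pools and 3.89 ± 1.13 CPM in untreated wild-type pools (SD, n = 4 each). Together they were 2 of 20 tudor domain and piwi genes (10%), beside 0.711% of all genes upward. This family was chosen after its values were seen.

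ttbk1b, a tau tubulin kinase, and SASH1, a signaling scaffold, shared the form of krt94. ttbk1b had 2.37, 1.77, 1.64 and 1.28 CPM in the stag2b-/- BIO pools and 0.899, 0.876, 0.807 and 1.37 CPM in the untreated stag2b-/- pools, against 1.66, 1.06, 1.3 and 1.37 CPM in the wild-type BIO pools and 2.79, 3.32, 3.82 and 4.75 CPM in the untreated wild-type pools. The untreated wild-type pools stood above all others, and the difference in response was 2.27 ± 0.3 (edgeR adjusted p = 1.54e-04). SASH1 averaged 2.32 ± 0.461 CPM in stag2b-/- BIO pools and 1.87 ± 0.192 CPM in untreated stag2b-/- pools, against 2.12 ± 0.451 CPM in wild-type BIO pools and 6.3 ± 1.66 CPM in untreated wild-type pools (SD, n = 4 each), a difference of 1.87 ± 0.32 (edgeR adjusted p = 0.00143).

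jam2b and SEMA3E were also among the 12 highest. jam2b, a junctional adhesion molecule, averaged 1.28 ± 0.338 CPM in stag2b-/- BIO pools and 1.18 ± 0.231 CPM in untreated stag2b-/- pools, against 0.813 ± 0.0809 CPM in wild-type BIO pools and 2.53 ± 0.721 CPM in untreated wild-type pools (SD, n = 4 each), a difference of 1.73 ± 0.3 (edgeR adjusted p = 0.00189). SEMA3E, a secreted guidance cue of vessels and axons, averaged 2.65 ± 0.541 CPM in stag2b-/- BIO pools and 2.49 ± 0.454 CPM in untreated stag2b-/- pools, against 2.34 ± 0.294 CPM in wild-type BIO pools and 6.04 ± 1.75 CPM in untreated wild-type pools (SD, n = 4 each), a difference of 1.47 ± 0.33 (edgeR adjusted p = 0.0196). In both the untreated wild-type group had the highest mean. The call for SEMA3E was lost without stag2b-/- BIO pool 3 (adjusted p = 0.0569).

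ASTN1, myo10l1, cnstb and cndp1 fell in wild type and did not pass in stag2b-/-. myo10l1, a myosin X-like motor, averaged 15 ± 0.579 CPM in stag2b-/- BIO pools and 11.3 ± 3.86 CPM in untreated stag2b-/- pools, against 7.8 ± 0.838 CPM in wild-type BIO pools and 16.1 ± 2.06 CPM in untreated wild-type pools (SD, n = 4 each), a difference of 1.45 ± 0.27 (edgeR adjusted p = 0.00287). ASTN1, the neuronal adhesion protein astrotactin, differed by 1.92 ± 0.41 (edgeR adjusted p = 0.0128). The gene cnstb differed by 1.45 ± 0.27 (edgeR adjusted p = 0.00414). The difference of cndp1, a dipeptidase, was 1.95 ± 0.45 (edgeR adjusted p = 0.0257) but was lost without 4 single libraries, and reached an adjusted p of 0.0627 without untreated wild-type pool 1. brinp3a.2 rose by 0.83 in stag2b-/- and fell by 0.99 in wild type on the log2 scale, a difference of 1.82 ± 0.36 (edgeR adjusted p = 0.00906).

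Genes that BIO raised in wild type and not in stag2b-/- led the downward differences. Among the 12 lowest interaction values under the same rule, the wild-type response rose in 9 and the stag2b-/- response fell in 5, and the differences ran between -3.26 and -1.66. With DESeq2 522 of the 24561 genes it tested passed the interaction test (2.13%). In a fit on the 16 libraries alone, which estimates the spread without the rad21 pools, 90 genes passed, 83 of them among the 287. ADARB2 and dnaaf2 were the 2 of the 12 lowest that passed there, against 9 of the 12 highest, where cndp1, ASTN1 and DNAJB9 (ENSDARG00000016886) did not pass, at adjusted p of 0.148, 0.0523 and 0.13.

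casp20, named as a caspase, had the smallest adjusted p of the downward differences with a gene symbol. casp20 had 15.6, 14.6, 16.1 and 14.2 CPM in the stag2b-/- BIO pools and 15.4, 20.3, 23.6 and 18.1 CPM in the untreated stag2b-/- pools, against 35.3, 29.9, 32.4 and 34.2 CPM in the wild-type BIO pools and 18.1, 19.7, 22.1 and 15.3 CPM in the untreated wild-type pools. The wild-type BIO pools were above all 12 other pools, and the untreated groups overlapped. BIO raised it by 0.81 in wild type on the log2 scale, the response in stag2b-/- was -0.35 (edgeR adjusted p = 0.0522), and the difference was -1.16 ± 0.16 (edgeR adjusted p = 1.72e-04).

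Of the heat shock genes, 3 had a lower response in stag2b-/- than in wild type. hsp90aa1.2, an inducible Hsp90 chaperone, had the smallest adjusted p of the 3. hsp90aa1.2 had 64.4, 63, 99.3 and 88.2 CPM in the stag2b-/- BIO pools and 31.2, 54.6, 122 and 86.5 CPM in the untreated stag2b-/- pools, against 76.8, 69.3, 116 and 165 CPM in the wild-type BIO pools and 22.8, 31.3, 18.4 and 20 CPM in the untreated wild-type pools. The untreated wild-type pools did not overlap with the wild-type BIO pools, and the untreated stag2b-/- pools overlapped with the wild-type BIO pools. The difference was -2.11 ± 0.43 (edgeR adjusted p = 0.0117), and 0.113 was its adjusted p in the 16-library fit.

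HSPD1, the mitochondrial chaperonin Hsp60, rose with BIO in both genotypes. HSPD1 had 438, 417, 434 and 439 CPM in the stag2b-/- BIO pools and 317, 288, 330 and 298 CPM in the untreated stag2b-/- pools, against 458, 422, 470 and 539 CPM in the wild-type BIO pools and 268, 227, 247 and 247 CPM in the untreated wild-type pools. BIO and untreated pools did not overlap within either genotype, and the response was 0.49 (edgeR adjusted p = 3.13e-04) in stag2b-/- and 0.93 (edgeR adjusted p = 2.41e-09) in wild type. The difference of -0.45 ± 0.11 (edgeR adjusted p = 0.0317) was lost without 9 of the 16 libraries in turn, with an adjusted p of 0.0659 without stag2b-/- BIO pool 2, and was 0.148 in the 16-library fit. HSPA8 (ENSDARG00000037403), a further member, differed by -2.39 ± 0.62 (edgeR adjusted p = 0.0446), lost without 10 of the 16 libraries, and its adjusted p was 0.0985 without untreated stag2b-/- pool 3. In all, 3 of 28 heat shock genes passed downward and none upward, while the response itself rose in 5 of 28 in stag2b-/- and 14 of 28 in wild type, beside 0.631% of all genes downward in the interaction and 3.26% and 7.58% rising in the responses. The median difference over the 28 was -0.17, beside -0.0033 over all genes tested, and ran between -0.23 (without stag2b-/- BIO pool 3) and -0.079 (without untreated stag2b-/- pool 3) when single libraries were left out.

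agt, which encodes angiotensinogen, the hormone precursor made by liver and yolk-associated tissue, stood apart between genotypes in both conditions. agt had 20.4, 22.4, 13.1 and 13.1 CPM in the stag2b-/- BIO pools and 13.5, 17.1, 16.5 and 8.91 CPM in the untreated stag2b-/- pools, against 3.34, 2.83, 2.87 and 3.1 CPM in the wild-type BIO pools and 0.611, 0.979, 0.186 and 0.0812 CPM in the untreated wild-type pools. Every stag2b-/- pool was above every wild-type pool, and BIO raised agt in wild type alone among the called responses. The difference was -2.5 ± 0.52 (edgeR adjusted p = 0.0122), with an adjusted p of 0.0997 in the 16-library fit. Summed yolk syncytial layer and liver type genes were at 2543 to 3070 CPM in stag2b-/- BIO pools and 2759 to 2848 CPM in untreated stag2b-/- pools, against 3690 to 4125 CPM in wild-type BIO pools and 3862 to 4471 CPM in untreated wild-type pools, the opposite order of genotypes to agt.

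Among motile cilia genes the calls were downward. dnaaf2, an assembly factor of the axonemal dynein motors, fell in stag2b-/- and rose in wild type. dnaaf2 had 0.898, 0.923, 1.17 and 0.987 CPM in the stag2b-/- BIO pools and 2.02, 1.21, 1.73 and 2.16 CPM in the untreated stag2b-/- pools, against 3.7, 2.74, 4.07 and 2.34 CPM in the wild-type BIO pools and 1, 1.32, 1.29 and 1.57 CPM in the untreated wild-type pools. The untreated groups overlapped and the BIO groups did not. Its response was -0.83 (edgeR adjusted p = 0.02) in stag2b-/- and 1.3 (edgeR adjusted p = 9.63e-05) in wild type, a difference of -2.13 ± 0.31 (edgeR adjusted p = 2.72e-04). DNAH3, an axonemal dynein heavy chain, averaged 1.91 ± 0.439 CPM in stag2b-/- BIO pools and 2.92 ± 1.48 CPM in untreated stag2b-/- pools, against 0.929 ± 0.573 CPM in wild-type BIO pools and 0.153 ± 0.126 CPM in untreated wild-type pools (SD, n = 4 each), a difference of -3.26 ± 0.66 (edgeR adjusted p = 0.0102) with an adjusted p of 0.0631 in the 16-library fit. These were the only 2 of 78 motile cilia genes to pass (2.56%), beside 0.631% of all genes downward. The median difference of the 78 was 0.051.

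Among the other downward differences, cobll1a, a cordon-bleu-like actin regulator, averaged 0.459 ± 0.0989 CPM in stag2b-/- BIO pools and 0.71 ± 0.123 CPM in untreated stag2b-/- pools, against 1.13 ± 0.104 CPM in wild-type BIO pools and 0.371 ± 0.0852 CPM in untreated wild-type pools (SD, n = 4 each), a difference of -2.22 ± 0.37 (edgeR adjusted p = 0.00122). SGSM3, a modulator of small G proteins, averaged 6.91 ± 0.547 CPM in stag2b-/- BIO pools and 6.16 ± 0.81 CPM in untreated stag2b-/- pools, against 8.4 ± 0.952 CPM in wild-type BIO pools and 3.83 ± 0.266 CPM in untreated wild-type pools (SD, n = 4 each), a difference of -0.96 ± 0.15 (edgeR adjusted p = 7.75e-04). dhdh.1, a dihydrodiol dehydrogenase, was uneven within the wild-type BIO group, at 22.6, 30, 7.94 and 7.14 CPM, against 6.13 to 7 CPM in untreated wild-type pools. Its difference of -1.66 ± 0.39 (edgeR adjusted p = 0.0257) was lost without 4 single libraries and was 0.0731 without wild-type BIO pool 2. ARG2, the mitochondrial arginase, differed by -1.71 ± 0.39 (edgeR adjusted p = 0.0212), lost without 3 single libraries, with an adjusted p of 0.0566 without stag2b-/- BIO pool 3. GRM4, a metabotropic glutamate receptor, was near the detection limit in stag2b-/- pools, at 0.0321 to 0.129 CPM, and was at 0.905 to 2.16 CPM in wild-type BIO pools and 0.0798 to 0.526 CPM in untreated wild-type pools. Its difference was -2.87 ± 0.66 (edgeR adjusted p = 0.0223), with an adjusted p of 0.14 in the 16-library fit and 0.0722 without untreated stag2b-/- pool 2.

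**Figure D2:**
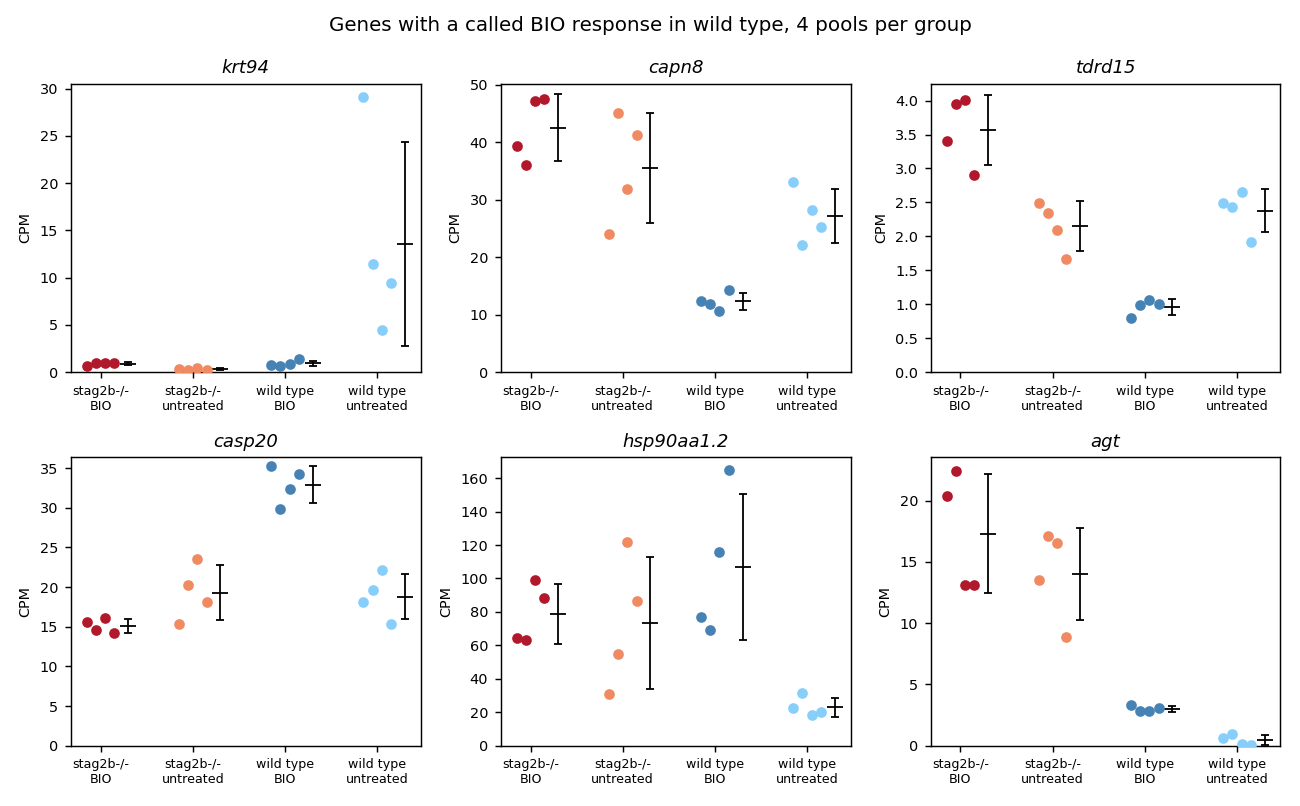
Levels in CPM (vertical axes, from 0) of 6 genes with a called BIO response in wild type, by group on the horizontal axis. Each point is 1 pool, and the bar beside it is the mean with its SD over 4 pools. For krt94 the untreated wild-type pools, at 4.43 to 29.1 CPM, lie above all others, and for casp20 the wild-type BIO pools, at 29.9 to 35.3 CPM, do.

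In a smaller set the response was called in stag2b-/- and not in wild type. vimr2, a gene related to vimentin, the intermediate filament protein of mesenchymal cells, lies at chr14:33788835-33824329 (GRCz11, minus strand), on the chromosome of stag2b. vimr2 had 7.92, 8.16, 6.52 and 6.62 CPM in the stag2b-/- BIO pools and 3.94, 2.45, 3.35 and 1.98 CPM in the untreated stag2b-/- pools, against 6.93, 8.56, 7.18 and 6.26 CPM in the wild-type BIO pools and 5.02, 10.3, 5.68 and 6.56 CPM in the untreated wild-type pools. The untreated stag2b-/- pools were below all other pools without overlap, and the BIO pools of both genotypes overlapped. BIO raised vimr2 by 1.31 in stag2b-/- on the log2 scale (edgeR adjusted p = 2.69e-04), the wild-type response was 0.072 (edgeR adjusted p = 0.853), and the difference was 1.24 ± 0.29 (edgeR adjusted p = 0.0232).

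The vimr2 call held without each of the 16 libraries in turn, with a highest adjusted p of 0.0499 without untreated stag2b-/- pool 4, and was 0.102 in the 16-library fit. vimr2 was the only 1 of 29 epithelial to mesenchymal transition genes to pass (3.45%), beside 0.711% of all genes upward. Of the 29 values, 22 were below 0, the other way from vimr2, with a median of -0.19. Within 10 Mb of stag2b, 5 of the 299 genes tested (1.67%) passed the interaction test, beside 1.34% of all genes.

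Among conjugation enzymes calls were upward for UDP glucuronosyltransferases and in both directions for sulfotransferases. UGT1A1, a UDP glucuronosyltransferase, which attaches glucuronic acid to bilirubin and foreign compounds, had a called rise with BIO in stag2b-/-. UGT1A1 had 14.2, 14.7, 16.2 and 18 CPM in the stag2b-/- BIO pools and 3.58, 4.12, 5.02 and 6.65 CPM in the untreated stag2b-/- pools, against 6.49, 6.75, 7.24 and 7.55 CPM in the wild-type BIO pools and 12.7, 16.7, 4.73 and 12.1 CPM in the untreated wild-type pools. The stag2b-/- BIO pools did not overlap with their untreated pools, while the wild-type groups overlapped. The response was 1.7 (edgeR adjusted p = 9.82e-04) in stag2b-/- and -0.72 (edgeR adjusted p = 0.0905) in wild type, a difference of 2.42 ± 0.42 (edgeR adjusted p = 0.00193).

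ugt5a1, of the fish branch of this family, rose in both genotypes. ugt5a1 had 5.03, 4.72, 4.97 and 4.99 CPM in the stag2b-/- BIO pools and 0.293, 0.567, 0.481 and 0.222 CPM in the untreated stag2b-/- pools, against 0.957, 0.791, 0.785 and 0.576 CPM in the wild-type BIO pools and 0.262, 0.526, 0.253 and 0.301 CPM in the untreated wild-type pools. BIO pools were above untreated pools in each genotype, and the stag2b-/- BIO pools were above all others. The rise was 3.66 in stag2b-/- and 1.22 in wild type on the log2 scale, a difference of 2.44 ± 0.59 (edgeR adjusted p = 0.0306) that was lost without 7 single libraries and was 0.0643 without untreated stag2b-/- pool 1. ugt5e1, at under 1 CPM in every pool, differed by 2.91 ± 0.53 (edgeR adjusted p = 0.0028). They were 3 upward and none downward of 20 UDP glucuronosyltransferase genes tested, beside 0.711% upward over all genes, a family chosen after its values were seen. Of 11 sulfotransferase genes, likewise chosen, 1 passed upward, sult1st4 at 3.29 (edgeR adjusted p = 0.00606), and 1 downward, sult3st1 at -3.83 (edgeR adjusted p = 0.026). Members of this family share sequence, and fragments that mapped to several places were not counted.

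ABCB6, a mitochondrial transporter of porphyrins, moved in opposite directions in the genotypes. ABCB6 had 16.3, 19.1, 16.4 and 19 CPM in the stag2b-/- BIO pools and 13.1, 11.6, 11.4 and 9.13 CPM in the untreated stag2b-/- pools, against 8.83, 9.29, 9.9 and 11.2 CPM in the wild-type BIO pools and 20.7, 15.1, 12 and 13.8 CPM in the untreated wild-type pools. BIO and untreated pools did not overlap within either genotype. The response was 0.65 (edgeR adjusted p = 0.00549) in stag2b-/- and -0.65 (edgeR adjusted p = 0.00171) in wild type, a difference of 1.3 ± 0.2 (edgeR adjusted p = 6.43e-04). In all, 4 of 45 ATP binding cassette transporter genes passed upward (8.89%) and none downward, beside 0.711% of all genes upward. The others were ABCD3, abch1 and abcc2, and this family too was chosen after its values were seen. These 3 fell in wild type, with responses of -0.72, -1.08 and -1.23, and their stag2b-/- responses did not pass. The calls of ABCD3 and abcc2 held in only 7 and 6 of the 16 fits that left out 1 library.

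Lipid genes were among those raised in stag2b-/-. cpt1ab, a carnitine palmitoyltransferase, the gate of fatty acids into mitochondria, was 1 of them. cpt1ab had 24.7, 23.8, 19.4 and 22.2 CPM in the stag2b-/- BIO pools and 14.8, 11.3, 10.3 and 6.85 CPM in the untreated stag2b-/- pools, against 11.3, 9.87, 12.2 and 10.2 CPM in the wild-type BIO pools and 12.4, 6.82, 14.5 and 10.1 CPM in the untreated wild-type pools. The stag2b-/- BIO pools were above all other pools, which overlapped with one another. The response was 1.06 (edgeR adjusted p = 5.28e-04) in stag2b-/- and -0.0075 (edgeR adjusted p = 0.985) in wild type, and the difference was 1.07 ± 0.25 (edgeR adjusted p = 0.0258), with an adjusted p of 0.138 in the 16-library fit and 0.058 without wild-type BIO pool 2.

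GPAT3, which starts triglyceride synthesis by acylating glycerol phosphate, averaged 8.66 ± 1.28 CPM in stag2b-/- BIO pools and 4.31 ± 0.741 CPM in untreated stag2b-/- pools, against 5.19 ± 0.888 CPM in wild-type BIO pools and 6.61 ± 0.594 CPM in untreated wild-type pools (SD, n = 4 each), a difference of 1.35 ± 0.27 (edgeR adjusted p = 0.00626). PNPLA3, a lipid droplet lipase, rose by 0.57 in stag2b-/- and fell by 0.57 in wild type on the log2 scale, a difference of 1.15 (edgeR adjusted p = 0.0127). GPAT3 and PNPLA3 were 2 of 24 phosphatidate and triglyceride genes (8.33%), with none downward. Of 61 fatty acid oxidation and peroxisome genes 5 passed upward (8.2%) and none downward, while their median difference was 0.0089. Over all genes 0.711% passed upward. Among the 5, cpt1ab and ACSL5 rose in stag2b-/-, whereas ABCD3 and PEX7 fell in wild type and their response in stag2b-/- did not pass. Both lipid families were chosen after their values were seen, and the calls of ACSL5, ABCD3 and PEX7 were each lost without at least 5 single libraries.

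ADARB2, a member of the RNA-editing deaminase family found mainly in brain, fell in stag2b-/- and rose in wild type (chr24:3537762-3783497, GRCz11, minus strand). ADARB2 had 0.834, 0.462, 0.805 and 0.482 CPM in the stag2b-/- BIO pools and 3.08, 1.88, 1.63 and 1.11 CPM in the untreated stag2b-/- pools, against 3.55, 2.85, 3.8 and 3.45 CPM in the wild-type BIO pools and 1.92, 1.8, 1.72 and 1.91 CPM in the untreated wild-type pools. The stag2b-/- BIO pools were below all other pools, the wild-type BIO pools were above their untreated pools, and the untreated groups overlapped. The response was -1.57 (edgeR adjusted p = 4.26e-04) in stag2b-/- and 0.89 (edgeR adjusted p = 0.00734) in wild type, a difference of -2.46 ± 0.35 (edgeR adjusted p = 1.75e-04).

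trim35-7, of the large fish family of tripartite motif ubiquitin ligases, fell in stag2b-/- alone among the called responses. trim35-7 had 2.21, 1.31, 1.44 and 1.3 CPM in the stag2b-/- BIO pools and 11.4, 8.58, 8.95 and 1.76 CPM in the untreated stag2b-/- pools, against 19.1, 21.4, 18 and 21.8 CPM in the wild-type BIO pools and 21.8, 23.6, 27.8 and 26.4 CPM in the untreated wild-type pools. Every stag2b-/- pool was below every wild-type pool, and untreated stag2b-/- pool 4 lay within the range of the stag2b-/- BIO pools. The response was -2.31 (edgeR adjusted p = 7.01e-05) in stag2b-/- and -0.31 (edgeR adjusted p = 0.465) in wild type, a difference of -2.0 ± 0.41 (edgeR adjusted p = 0.0104), with an adjusted p of 0.119 in the 16-library fit.

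FOXQ1, a forkhead transcription factor, fell by 0.94 on the log2 scale in stag2b-/-. FOXQ1 had 7.37, 6, 7.2 and 8.02 CPM in the stag2b-/- BIO pools and 10, 13.6, 17.1 and 14.1 CPM in the untreated stag2b-/- pools, against 14.3, 8.93, 23.6 and 17.2 CPM in the wild-type BIO pools and 13.8, 9.59, 7.18 and 15.9 CPM in the untreated wild-type pools. The stag2b-/- BIO pools were below the untreated stag2b-/- and the wild-type BIO pools and overlapped with the lowest untreated wild-type pool. The difference was -1.39 ± 0.33 (edgeR adjusted p = 0.0268), lost without 4 single libraries, with an adjusted p of 0.0741 without wild-type BIO pool 3 and 0.133 in the 16-library fit.

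tgm2l, a transglutaminase, and krt18b, a keratin of simple epithelia, also fell in stag2b-/-. tgm2l averaged 3.18 ± 1.18 CPM in stag2b-/- BIO pools and 11 ± 6.81 CPM in untreated stag2b-/- pools, against 9.84 ± 2.35 CPM in wild-type BIO pools and 5.8 ± 2.67 CPM in untreated wild-type pools (SD, n = 4 each), a difference of -2.57 ± 0.52 (edgeR adjusted p = 0.00949) with an adjusted p of 0.122 in the 16-library fit. krt18b had 3.3, 2.59, 2.91 and 3.71 CPM in stag2b-/- BIO pools and 6.99, 8.04, 12.8 and 11.2 CPM in untreated stag2b-/- pools, and was at 2.25 to 4.57 CPM in wild-type BIO pools and 1.74 to 4.76 CPM in untreated wild-type pools. Its difference of -1.73 ± 0.41 (edgeR adjusted p = 0.0284) was lost without 7 single libraries and was 0.0638 without untreated wild-type pool 4.

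**Figure D3:**
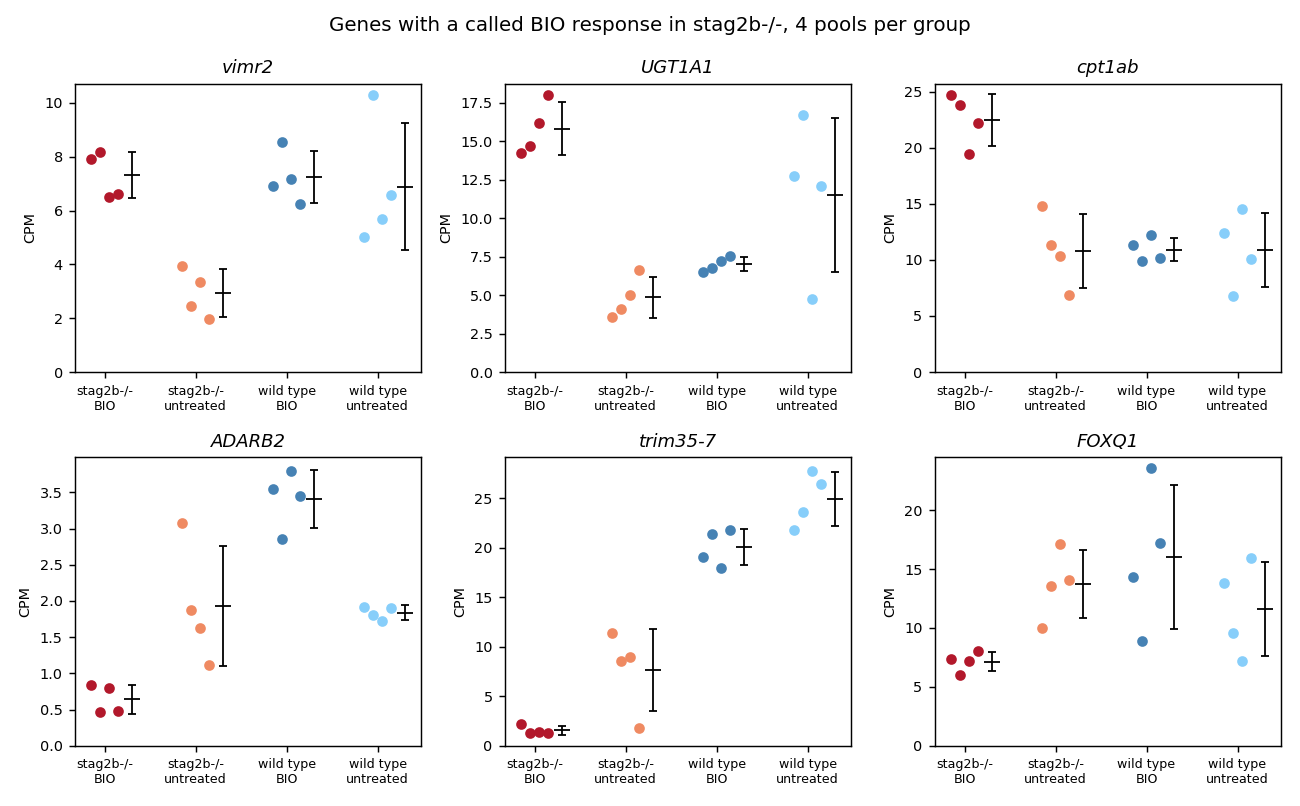
Levels in CPM (vertical axes, from 0) of 6 genes with a called BIO response in stag2b-/-, by group on the horizontal axis. Each point is 1 pool, and the bar beside it is the mean with its SD over 4 pools. Untreated stag2b-/- pools of vimr2, at 1.98 to 3.94 CPM, lie below the other groups, and stag2b-/- BIO pools of ADARB2, at 0.462 to 0.834 CPM, lie below the other groups.

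Calls among Wnt genes and tailbud progenitor genes were few or absent, near the share of 1.34% over all genes. None of 18 direct Wnt targets and feedback inhibitors and none of 39 Wnt ligands, receptors and destruction complex genes passed the interaction test, with median differences of -0.073 and -0.16, beside -0.0033 over all genes tested. Of the 96 Wnt genes that the study used for a pathway score, 1 passed (1.04%), beside 1.34% of all genes. It was inhbb, an activin subunit, downward, a call lost without 5 single libraries. Values were below 0 for 10 of the 18, 31 of the 39 and 65 of the 96, beside 10777 of the 21385 genes tested. Over all cell type and pathway lists together, which reach beyond Wnt signaling, 39 genes passed, 14 upward and 25 downward, and 8 in the 16-library fit. Some genes are on several lists, so this total is given without a share. The largest list, of 370 solute carrier genes, had 4 upward and 2 downward (1.62%), beside 1.34% of all genes. axin2, a feedback inhibitor widely used as a Wnt readout, had 119, 110, 107 and 111 CPM in stag2b-/- BIO pools and 110, 124, 97.9 and 116 CPM in untreated stag2b-/- pools, against 99.4, 108, 86.2 and 105 CPM in wild-type BIO pools and 109, 95.8, 107 and 109 CPM in untreated wild-type pools. The 4 groups overlapped, and its difference was 0.073 ± 0.11 (edgeR adjusted p = 0.849). Within the 18, the response itself was called in none in stag2b-/- and, in wild type, upward in 4 and downward in 1. Of all genes, 7.58% rose and 9.76% fell in wild type. The Wnt effector lef1 had a difference of -0.18 (edgeR adjusted p = 0.605) and the Tcf target sp5l one of -0.28 (edgeR adjusted p = 0.283).

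None of the 18 tailbud progenitor genes passed, with a median difference of -0.20 and 13 of the 18 values below 0. tbx16, the T-box factor of mesoderm progenitors, had 304, 311, 307 and 286 CPM in stag2b-/- BIO pools and 283, 298, 281 and 303 CPM in untreated stag2b-/- pools, against 405, 447, 405 and 436 CPM in wild-type BIO pools and 318, 303, 329 and 301 CPM in untreated wild-type pools. Its wild-type BIO pools were above all other pools, its wild-type response was 0.44 (edgeR adjusted p = 0.00247), and the difference between genotypes missed the threshold at -0.38 ± 0.14 (edgeR adjusted p = 0.197).

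FOXC1, a forkhead factor of the paraxial mesoderm, was the only 1 of 23 paraxial mesoderm genes to pass. Its difference was downward (4.35%), beside 0.631% of all genes downward. Of the 23 values, 18 were below 0, with a median of -0.25. BIO raised 7 of the 23 in wild type and 0 in stag2b-/-, beside 7.58% and 3.26% of all genes. Their summed level was 5681 to 6074 CPM in wild-type BIO pools, above every pool of the other groups. FOXC1 had 89.7, 105, 106 and 97.5 CPM in the stag2b-/- BIO pools and 103, 89.3, 93.5 and 107 CPM in the untreated stag2b-/- pools, against 150, 151, 150 and 140 CPM in the wild-type BIO pools and 89.1, 94.1, 113 and 99.2 CPM in the untreated wild-type pools. The wild-type BIO pools were above all others, and the other 3 groups overlapped. The response was 0.018 (edgeR adjusted p = 0.943) in stag2b-/- and 0.58 (edgeR adjusted p = 6.17e-05) in wild type, a difference of -0.56 ± 0.13 (edgeR adjusted p = 0.0247), with an adjusted p of 0.0657 in the 16-library fit and a call lost without wild-type BIO pool 2 (adjusted p = 0.05 after rounding).

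Of the Hox genes, which set position along the axis, hoxb3a passed. It had 178, 163, 159 and 146 CPM in stag2b-/- BIO pools and 158, 157, 154 and 173 CPM in untreated stag2b-/- pools, against 266, 258, 235 and 192 CPM in wild-type BIO pools and 147, 153, 184 and 156 CPM in untreated wild-type pools. The wild-type BIO pools were the highest, and the difference was -0.56 ± 0.13 (edgeR adjusted p = 0.0223). The call was lost without 3 single libraries, with an adjusted p of 0.0561 without stag2b-/- BIO pool 4. hoxb3a was the only 1 of 48 Hox genes to pass (2.08%), beside 0.631% of all genes downward. The BIO response was called upward in 1 of the 48 in stag2b-/- and 19 of the 48 in wild type, beside 3.26% and 7.58% of all genes. Median responses were 0.011 and 0.33, but the difference itself passed for hoxb3a alone.

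Listed skeletal muscle genes had mostly values below 0 and few calls. Of 81 tested, 3 passed downward (3.7%) and none upward, beside 0.631% of all genes downward and 0.711% upward. Values were below 0 for 68 of the 81. The median difference was -0.55, made of a median response of -0.24 in stag2b-/- and 0.33 in wild type. Among the 3 were rbfox1l, a muscle splicing factor, at -1.47 (edgeR adjusted p = 0.0311), and CACNG1, a subunit of the muscle calcium channel, which was at under 1 CPM in every pool. Both of these calls were lost without at least 6 single libraries. Summed muscle genes were at 2890 to 3269 CPM in stag2b-/- BIO pools and 1833 to 3549 CPM in untreated stag2b-/- pools, against 2821 to 3674 CPM in wild-type BIO pools and 1757 to 2487 CPM in untreated wild-type pools. The median difference of the 81 ran between -0.72 (without untreated stag2b-/- pool 2) and -0.33 (without untreated stag2b-/- pool 1) when single libraries were left out, and between -0.94 and -0.11 when a replicate number was left out of every group. Off the list, and noticed after their values were seen, MYOM2, which encodes a sarcomere protein, passed upward at 1.3 (edgeR adjusted p = 0.0292) and myhb, a myosin heavy chain gene, passed upward at 1.43 (edgeR adjusted p = 0.0268), both lost without 6 single libraries. The part of muscle content in these values was not tested.

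Of 23 endothelial and 28 blood genes, 3 passed, all downward, beside 0.631% of all genes downward. npas4l, the factor known as cloche in zebrafish, which acts at the top of endothelial and blood specification, was 1 of them. npas4l had 9.39, 11.9, 11.7 and 11 CPM in the stag2b-/- BIO pools and 19.1, 18.6, 12.5 and 17.4 CPM in the untreated stag2b-/- pools, against 26.3, 22.3, 23.8 and 17.6 CPM in the wild-type BIO pools and 12.9, 17.5, 17.3 and 17.1 CPM in the untreated wild-type pools. The stag2b-/- BIO pools were below all others, the wild-type BIO pools were above the untreated wild-type pools, and the untreated groups overlapped. The response was -0.62 (edgeR adjusted p = 0.019) in stag2b-/- and 0.47 (edgeR adjusted p = 0.0408) in wild type, a difference of -1.09 ± 0.23 (edgeR adjusted p = 0.0125).

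LMO2, a partner of Tal1 in blood and vessel progenitors, averaged 47.8 ± 5.34 CPM in stag2b-/- BIO pools and 63.4 ± 9.23 CPM in untreated stag2b-/- pools, against 77 ± 11.6 CPM in wild-type BIO pools and 61.1 ± 6.46 CPM in untreated wild-type pools (SD, n = 4 each), a difference of -0.74 ± 0.18 (edgeR adjusted p = 0.031), lost without 7 single libraries, with an adjusted p of 0.0933 without wild-type BIO pool 1. The apelin receptor gene aplnra, which acts in vessel and heart progenitors, differed by -0.5 ± 0.12 (edgeR adjusted p = 0.0247), lost without 3 single libraries, with an adjusted p of 0.0588 without wild-type BIO pool 3. These were 2 of 23 endothelial genes and 1 of 28 blood genes, with median differences of -0.28 and 0.35, and 24 of the 28 blood genes had values above 0, the other way from LMO2.

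Feedback inhibitors of receptor tyrosine kinase signaling were 2 of 25 FGF genes to pass (8%), both downward, beside 0.631% of all genes downward. SPRY1, a Sprouty, had 29.6, 40.6, 42.7 and 38.8 CPM in stag2b-/- BIO pools and 44.8, 37.6, 34.2 and 40.9 CPM in untreated stag2b-/- pools, against 57.2, 65.8, 54.9 and 57.1 CPM in wild-type BIO pools and 38.3, 35.8, 41.3 and 39.1 CPM in untreated wild-type pools. The wild-type BIO pools were above all others, and the difference was -0.66 ± 0.16 (edgeR adjusted p = 0.0323). SPRED1 differed by -0.47 ± 0.12 (edgeR adjusted p = 0.0316). Both calls were lost without 8 of the 16 libraries in turn, with the highest adjusted p at 0.0801 for SPRY1 without wild-type BIO pool 2 and 0.0666 for SPRED1 without untreated wild-type pool 4.

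Of 36 unfolded protein and amino acid stress genes, 2 passed upward and 1 downward (8.33% together), beside 1.34% of all genes in both directions. DNAJB9 (ENSDARG00000052072), an Hsp40 co-chaperone of that compartment, averaged 2.17 ± 0.369 CPM in stag2b-/- BIO pools and 1.12 ± 0.31 CPM in untreated stag2b-/- pools, against 1.5 ± 0.678 CPM in wild-type BIO pools and 2.9 ± 0.673 CPM in untreated wild-type pools (SD, n = 4 each), a difference of 1.9 ± 0.36 (edgeR adjusted p = 0.00493). Its paralog DNAJB9 (ENSDARG00000016886) differed by 1.51 ± 0.35 (edgeR adjusted p = 0.0232), lost without 5 single libraries, with an adjusted p of 0.0571 without stag2b-/- BIO pool 4. PSAT1, a serine synthesis enzyme on the same list, differed downward by -0.73 ± 0.16 (edgeR adjusted p = 0.0183). Of 20 NRF2 target genes, GCLC, which makes the glutathione precursor, and abcc2, an exporter of conjugates, passed upward (10%), beside 0.711% of all genes upward. Their differences were 0.61 (edgeR adjusted p = 0.0247) and 1.37 (edgeR adjusted p = 0.0445), calls lost without 3 and 10 of the 16 libraries in turn.

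Of 77 sox and fox genes 4 passed, all downward (5.19%), beside 0.631% of all genes downward. The 4 were FOXC1 and FOXQ1, given above, with SOX6 and SOX4. The calls of SOX6 and SOX4 held in only 2 and 5 of the 16 fits that left out 1 library. Of 62 nlr and fish trim genes 3 passed, all upward (4.84%), beside 0.711% of all genes upward. The 62 do not count trim35-7, which passed downward, or trim25, which passed upward at 0.96 (edgeR adjusted p = 0.0381). Of the 3, nlrc11 and ftr60 averaged 0.00423 and 0.0342 CPM in wild-type BIO pools, near the detection limit. The call of NLRC3, the other member, held in only 3 of the 16 fits that left out 1 library, against 16 for nlrc11 and ftr60. The sox and fox family and the nlr and fish trim family were chosen after their values were seen. Calls were few or absent in the lists that follow, beside 1.34% of all genes. The core cell cycle list had none of 69, with a median difference of 5.1e-04, and at an unadjusted p under 0.05 it had 24 of 69, beside 13.2% of all genes. Cytosolic ribosomal protein genes had none of 94 with a median of 0.19, nuclear oxidative phosphorylation genes none of 97 with a median of -0.0064, and p53 target genes none of 21 with a median of -0.047. AP-1 and immediate early genes had 1 of 43, CCN1 downward (2.33%), beside 0.631% of all genes downward. That call was lost without 11 of the 16 libraries in turn. Of the 43 values, 39 were below 0, with a median of -0.40, beside 10777 of the 21385 genes tested. BIO lowered 13 of the 43 in stag2b-/- and 7 of the 43 in wild type, beside 4.72% and 9.76% of all genes. A gene that missed the threshold is not shown to respond alike.

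**Figure D4:**
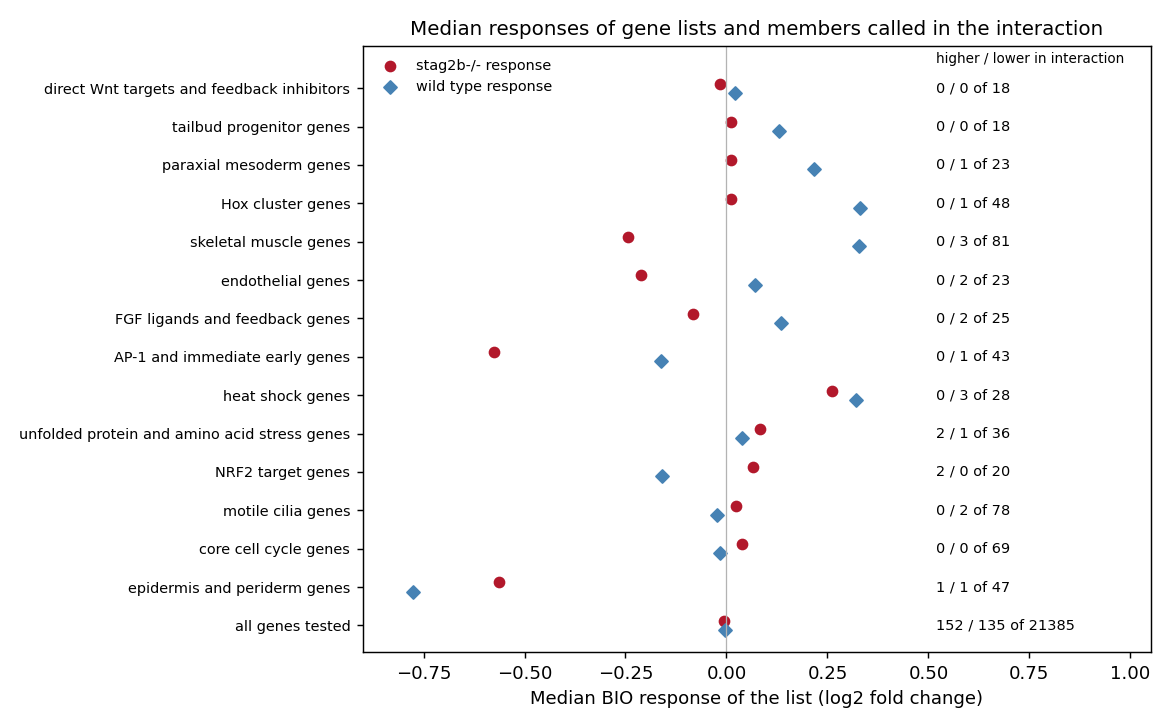
Median BIO response (horizontal axis, log2 fold change) of the genes of each list in stag2b-/- and in wild type, with 1 list per row and the number of genes passing the interaction test upward and downward, of those tested, at the right. For skeletal muscle genes the medians are -0.24 in stag2b-/- and 0.33 in wild type, and for Hox genes they are 0.011 and 0.33.

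Hatching gland RNA varied among single pools. The hatching enzyme gene he1.1 had 0.673, 10.7, 0.985 and 1.78 CPM in stag2b-/- BIO pools and 19.5, 154, 0.79 and 0.546 CPM in untreated stag2b-/- pools, against 0.276, 0.352, 0.513 and 0.863 CPM in wild-type BIO pools and 226, 3.26, 64.7 and 13.8 CPM in untreated wild-type pools. Untreated pools of both genotypes held both high and low values. None of the 6 hatching gland genes tested passed, although their median difference was 2.37, and their part in other results was not tested.

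The response of stag2b-/- was next set against that of the rad21 mutants, homozygous or heterozygous for rad21 nz171, which were given BIO or left untreated in the same way. These comparisons use the same stag2b-/- pools as the interaction, so they are not independent of it, but they do not use the wild-type levels. Between stag2b-/- and rad21-/- 12 genes differed in BIO response (0.0561%), 6 in each direction (0.0281%), and between stag2b-/- and rad21+/- 23 did (0.108%), 12 upward (0.0561%) and 11 downward (0.0514%). At the same threshold other tools gave more for these contrasts, 149 and 209 with DESeq2 and 218 and 208 with limma voom, and 2097 and 2320 genes had an unadjusted p under 0.05.

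Of the 287 genes, 5 passed against rad21-/- and 5 against rad21+/-, and 3 passed in both, FOXQ1, trim35-7 and PIGP, which are named because of these values. FOXQ1 had the largest contrast of the 3. Its BIO response was -0.94 in stag2b-/-, 1.83 in rad21-/-, 1.8 in rad21+/- and 0.45 in wild type, and stag2b-/- differed by -2.77 (edgeR adjusted p = 6.35e-05) against rad21-/- and -2.74 (edgeR adjusted p = 8.83e-05) against rad21+/-. trim35-7 had responses of -2.31 in stag2b-/-, 0.19 in rad21-/-, 0.013 in rad21+/- and -0.31 in wild type, with differences of -2.5 (edgeR adjusted p = 0.00551) against rad21-/- and -2.33 (edgeR adjusted p = 0.0214) against rad21+/-. Both genes fell in stag2b-/- tailbuds, and FOXQ1 rose in both rad21 genotypes.

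PIGP, an enzyme of glycosylphosphatidylinositol anchor synthesis, was low in stag2b-/- throughout. PIGP had 2.37, 2.13, 2.04 and 2.48 CPM in the stag2b-/- BIO pools and 3.28, 2.91, 3.68 and 2.95 CPM in the untreated stag2b-/- pools, against 19.4, 17.7, 23.2 and 21.8 CPM in the wild-type BIO pools and 13.7, 17.8, 15.6 and 13.1 CPM in the untreated wild-type pools. No stag2b-/- pool overlapped with any wild-type pool, and BIO widened the gap. The response was -0.52 (edgeR adjusted p = 0.00951) in stag2b-/- and 0.45 (edgeR adjusted p = 0.00426) in wild type, a difference of -0.96 ± 0.17 (edgeR adjusted p = 0.00143), beside -0.81 (edgeR adjusted p = 0.0452) against rad21-/- and -0.83 (edgeR adjusted p = 0.0349) against rad21+/-.

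ADARB2 and BTK passed against rad21-/- and not against rad21+/-, and calm2a, a calmodulin gene, and an unnamed gene (ENSDARG00000092408) passed against rad21+/- and not against rad21-/-. ADARB2 differed by -2.24 (edgeR adjusted p = 0.00229) against rad21-/- and -1.37 (edgeR adjusted p = 0.106) against rad21+/-. BTK, the Tec-family kinase of B cells and myeloid cells, also on chromosome 14, had 22.3, 20, 21.7 and 22.2 CPM in stag2b-/- BIO pools and 13.1, 11.9, 14 and 10.8 CPM in untreated stag2b-/- pools, against 15.3, 16, 15 and 13.7 CPM in wild-type BIO pools and 17.1, 15.1, 13.5 and 16.3 CPM in untreated wild-type pools. Its stag2b-/- BIO pools were above all others. The difference against wild type was 0.84 ± 0.18 (edgeR adjusted p = 0.0137), with 1.11 (edgeR adjusted p = 0.00312) against rad21-/- and 0.71 (edgeR adjusted p = 0.106) against rad21+/-.

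For vimr2 the BIO response was 1.31 (edgeR adjusted p = 2.69e-04) in stag2b-/-, 0.006 (edgeR adjusted p = 0.993) in rad21-/-, 0.16 (edgeR adjusted p = 0.724) in rad21+/- and 0.072 (edgeR adjusted p = 0.853) in wild type. The stag2b-/- response exceeded that of rad21-/- by 1.3 (edgeR adjusted p = 0.0697) and that of rad21+/- by 1.15 (edgeR adjusted p = 0.106), neither of which passed. For krt94 these differences were 3.07 (edgeR adjusted p = 0.084) and 2.29 (edgeR adjusted p = 0.176), for capn8 0.2 (edgeR adjusted p = 0.841) and 0.57 (edgeR adjusted p = 0.317), and for casp20 -0.28 (edgeR adjusted p = 0.599) and -0.39 (edgeR adjusted p = 0.353). Thus the calls of krt94, capn8 and casp20 were made against wild type and not against either rad21 genotype.

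**Figure D5:**
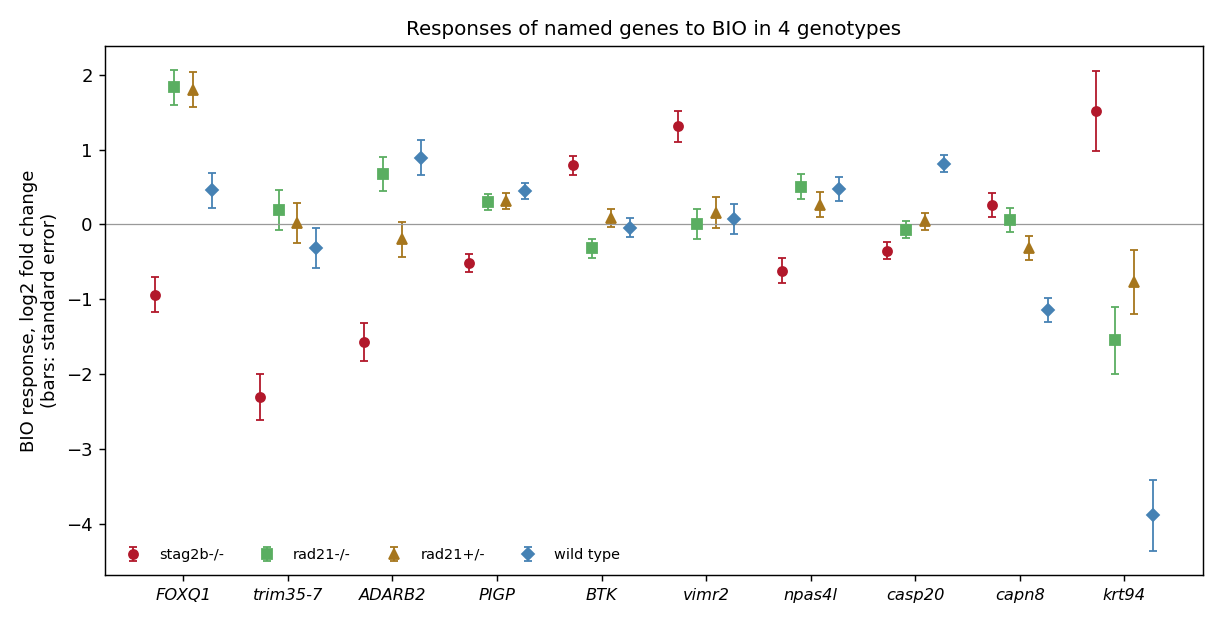
BIO response (vertical axis, log2 fold change, bars are standard errors) of 10 genes in stag2b-/-, rad21-/-, rad21+/- and wild type. FOXQ1 is below 0 in stag2b-/-, at -0.94, and above 0 in rad21-/- and rad21+/-, at 1.83 and 1.8, and vimr2 is at 1.31 in stag2b-/-, against 0.006, 0.16 and 0.072 in rad21-/-, rad21+/- and wild type.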

How the data were processed

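RNA-seq was performed on 4 pools in each of 8 groups (32 libraries), of which the 16 libraries of stag2b-/- and wild type, with BIO or untreated, form the interaction. Trimming by the authors used Cutadapt and alignment to GRCz11 used HISAT2 and SAMtools. They deposited raw fragment counts per Ensembl gene (annotation release 98) from featureCounts 1.5.3, counted by strand, without fragments that mapped to several places or overlapped several genes. Library totals ran between 32464614 and 84208700, and intervals of single counts cover counting error only.

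Counts were tested with edgeR 4.0.16 (R 4.3.3) by the quasi-likelihood method with TMM factors, genes filtered by expression within groups, 1 mean per group over all 32 libraries, 24 residual degrees of freedom and Benjamini-Hochberg adjustment over the 21385 genes tested. The false discovery rate was 5%. CPM values use TMM-scaled totals, and log2 fold changes have a standard error from the fit. The scripts were tested on simulated data.

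Genes named were the cohesin subunits, vimr2 and axin2; the 12 highest and 12 lowest differences of called genes with a symbol and an average log2 CPM of at least 1; the 10 smallest adjusted p; and members of discussed lists. The average log2 CPM was taken over all 32 libraries. The members and lists were chosen with earlier results of these data known, and the enzyme, transporter, lipid, sox and fox, tudor and nlr families, and the genes singled out against rad21, after their values were seen. Symbols of 28988 of the 32057 genes came from a gene name table, some in capitals as for human orthologs, and stag2b was identified by its chromosome among the genes named STAG2. No per-sample column was left unassigned. Alternatives were DESeq2 1.42.0, limma 3.58.1 voom with quality weights, RLE factors, no filter on low counts (at least 1 count) and fewer genotypes. A replicate block, and leaving out each library or each replicate number, were further alternatives. The fit on fewer genotypes left out both rad21 genotypes or, in a contrast with a rad21 genotype, the other rad21 genotype only. Promoter motifs were not analysed here. Some genes are not reported here.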

Additional observations from a re-analysis of the deposited data

Results flagged for a closer look

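A difference in BIO response between genotypes was tested directly in 3 comparisons. It passed for 287 genes between stag2b-/- and wild type, 12 between stag2b-/- and rad21-/-, and 23 between stag2b-/- and rad21+/- (edgeR quasi-likelihood test, Benjamini-Hochberg adjustment). Among the genes followed one by one, the upward differences on the log2 scale were 5.41 for krt94, 2.42 for UGT1A1, 2.36 for LCP1, 2.27 for ttbk1b, 2.05 for tdrd15, 1.95 for cndp1, 1.92 for ASTN1, 1.87 for SASH1, 1.82 for brinp3a.2, 1.73 for jam2b, 1.51 for DNAJB9 (ENSDARG00000016886), 1.47 for SEMA3E, 1.45 for cnstb, 1.45 for myo10l1, 1.4 for capn8, 1.3 for ABCB6 and 1.24 for vimr2. The downward differences were -3.26 for DNAH3, -2.87 for GRM4, -2.57 for tgm2l, -2.5 for agt, -2.46 for ADARB2, -2.39 for HSPA8 (ENSDARG00000037403), -2.22 for cobll1a, -2.13 for dnaaf2, -2.11 for hsp90aa1.2, -2.0 for trim35-7, -1.73 for krt18b, -1.71 for ARG2, -1.66 for dhdh.1, -1.16 for casp20 and -0.96 for SGSM3. All of these passed the test of the difference itself.

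Single pools stood far from the other 3 of their group by Dixon's test in 6 of 168 groups of 4, and chance gives about 1 in 20. stag2b was at 153 CPM in untreated stag2b-/- pool 3, against 168 to 170 CPM in the others. krt94 was at 0.609 CPM in stag2b-/- BIO pool 1, against 0.93 to 0.963 CPM. jam2b was at 1.45 CPM in untreated wild-type pool 2, against 2.86 to 2.95 CPM, and DNAJB9 (ENSDARG00000016886) at 2.15 CPM in untreated wild-type pool 3, against 4.12 to 4.3 CPM. trim35-7 was at 2.21 CPM in stag2b-/- BIO pool 1, against 1.3 to 1.44 CPM, and ttbk1b at 1.37 CPM in untreated stag2b-/- pool 4, against 0.807 to 0.899 CPM.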

How the results depend on the processing

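None of the 32 genes followed under all 26 alternatives (the highest and lowest differences, the smallest adjusted p and vimr2) reversed its direction, and other genes named were not followed there. The number of genes differing in response between stag2b-/- and wild type, 287 as reported, was 522 with DESeq2, 670 with limma voom and quality weights, and 90 with the 16 libraries alone. It ran between 158 (without stag2b-/- BIO pool 4) and 484 (without untreated wild-type pool 3) when single libraries were left out, and between 60 and 144 when a replicate number was left out of every group. RLE factors gave 294 and no filter gave 256. For the BIO response in stag2b-/-, limma voom gave 2740 genes and the 16 libraries alone 710, single libraries left out gave 849 to 2166, and replicate numbers left out 282 to 1131. For the response in wild type the ranges were 2852 to 4110 and 1882 to 3220. Against rad21-/- the 12 genes became 149 with DESeq2, 218 with limma voom and 18 with RLE factors, with ranges of 6 to 33 and 2 to 7. Against rad21+/- the 23 became 209, 208 and, in the 24 libraries left without rad21-/-, 6, with ranges of 1 to 44 and 1 to 26. Of the 32 named genes followed, 10 passed under every alternative and 18 passed in the 16-library fit, with ranges of 26 to 32 and 18 to 21. Called list members numbered 60 with DESeq2, 71 with limma voom and 8 in the 16-library fit, with ranges of 19 to 57 and 9 to 18.

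With a replicate block, 507 genes differed between stag2b-/- and wild type (286 of the 287 among them), 2479 responded in stag2b-/- and 4705 in wild type, 80 differed from rad21-/- and 130 from rad21+/-, and 66 list members passed. The labels give no pairing. Same-numbered pools had deviations correlated between -0.104 and 0.272, mostly above 0 but not all above 0.1. In more comparisons than not, the same-numbered pool was the most correlated pool of the other group. Whether replicate numbers mark shared handling was not tested, and the block is given as an alternative only.

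Depth limits genes below about 1 CPM, such as CACNG1 and GRM4. Untreated wild-type pools, which differed most from one another by raw counts, enter the interaction, the wild-type response and the untreated genotype difference. How far their spread limits these results was not tested.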
